A study of Mus musculus with 6 samples.

Results

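The 10 genes described here, Cdh1, Epcam, Cldn6, Cldn7, Ocln, Cgn, Marveld2, Marveld3, Esrp1 and Esrp2, encode proteins that hold epithelial cells together, seal the space between them or set the splicing pattern of epithelial mRNA. They were chosen by name from the 54532 genes of the deposited table, and each has 1 row there. The choice took them as general epithelial genes meant to follow the epithelial share of each library. Whether they follow that share was not tested. The tissue was the mouse pancreatic bud, taken from the embryo at E12.5 and cultured for 2 days in medium with 10% fetal bovine serum and 0.1% DMSO. The TBZ group received 0.1 µM tetrabenazine (TBZ) throughout, an inhibitor of the vesicular monoamine transporter VMAT2, and the Control group received the DMSO vehicle without TBZ. Poly-A RNA of 3 TBZ and 3 Control libraries was sequenced, in a study of how monoamine handling bears on pancreatic development. The labels give no genotype, strain or number of pooled buds, and do not say whether replicates are separate cultures, so p-values measure only the spread between these samples, which may be technical.

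In the pancreatic bud an epithelium that will form acinar, duct and endocrine cells branches into a surrounding mesenchyme. E-cadherin, the product of Cdh1, joins neighbouring epithelial cells at adherens junctions, and tight junctions above them seal the space towards the lumen. Claudins form the strands of the tight junction, the related MARVEL-domain proteins occludin, tricellulin and MarvelD3 sit within them, and cingulin couples the junction to the actin cytoskeleton. EpCAM is a cell surface protein of epithelia that binds claudin-7, and ESRP1 and ESRP2 are RNA-binding proteins that direct epithelial splice forms, such as that of the FGF receptor FGFR2. Mesenchymal cells lack most of these proteins, and the transcription factors SNAI1, ZEB1 and their relatives repress several of the genes through the DNA motif CAGGTG, an E-box.

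Promoter windows, from 250 bases before to 50 after a RefSeq transcription start (GRCm38.p6), were matched for 6 of the 10 genes, namely Epcam, Cldn6, Cldn7, Ocln, Cgn and Marveld2, in 9 windows. The windows of Ocln and Cgn are shown because these genes had the smallest p-values among the 6, and those of Cldn6 and Cldn7 because these had the fold changes nearest to 0. Capitals mark CAGGTG on either strand (CACCTG when read in reverse) and AACNNGTT, the core bound by GRHL transcription factors of epithelia, and each is read 5′ to 3′ on the strand of the gene.
Ocln, chr13:100552669-100552968, minus strand: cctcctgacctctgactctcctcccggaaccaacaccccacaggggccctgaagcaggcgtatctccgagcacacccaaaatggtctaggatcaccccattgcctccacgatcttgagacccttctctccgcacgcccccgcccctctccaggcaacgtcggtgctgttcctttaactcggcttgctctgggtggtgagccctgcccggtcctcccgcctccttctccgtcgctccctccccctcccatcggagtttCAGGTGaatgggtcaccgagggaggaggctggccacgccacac
Cgn, chr3:94786433-94786732, minus strand: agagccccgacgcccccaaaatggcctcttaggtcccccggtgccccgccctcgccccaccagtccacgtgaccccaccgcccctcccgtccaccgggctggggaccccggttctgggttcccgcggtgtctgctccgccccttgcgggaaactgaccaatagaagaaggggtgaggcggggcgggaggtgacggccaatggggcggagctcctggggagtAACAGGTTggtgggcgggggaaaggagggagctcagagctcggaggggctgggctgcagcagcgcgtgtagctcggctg
Cldn6, chr17:23679115-23679414, plus strand: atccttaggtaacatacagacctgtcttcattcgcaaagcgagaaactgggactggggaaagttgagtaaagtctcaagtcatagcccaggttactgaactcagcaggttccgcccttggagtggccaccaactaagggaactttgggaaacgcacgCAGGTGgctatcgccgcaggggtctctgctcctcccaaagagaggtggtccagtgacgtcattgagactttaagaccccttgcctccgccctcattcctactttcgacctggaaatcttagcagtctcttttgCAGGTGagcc
Cldn7, chr11:69964529-69964828, plus strand: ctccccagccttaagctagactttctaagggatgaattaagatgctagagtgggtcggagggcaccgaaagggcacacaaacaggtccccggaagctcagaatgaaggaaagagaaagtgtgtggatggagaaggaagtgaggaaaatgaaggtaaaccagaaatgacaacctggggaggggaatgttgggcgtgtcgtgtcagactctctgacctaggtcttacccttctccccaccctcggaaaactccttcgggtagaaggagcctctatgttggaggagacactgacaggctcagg
CAGGTG stood in 7 of the 9 windows, while 20.2% of 32851 promoter windows of the same length held it. By gene, 5 of the 6 had it in at least 1 window, Cgn being the exception. Cldn7, Ocln and Marveld2 had 2 windows each, and no share by gene was computed for comparison. The Cldn7 window printed has no CAGGTG, and its second window, at a start further into the gene, has 2. Windows of a gene overlap for Ocln and Marveld2 and share motif copies, so the 9 windows are not independent. AACNNGTT stood in 1 member window, that of Cgn, against 4.2% of all windows. These matches describe letters in the windows and do not show binding.

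Measured per kilobase, the 10 genes spanned a wide range of levels. Epcam was highest, at 173.8 ± 11.95 FPKM in TBZ and 159.4 ± 7.501 FPKM in Control libraries (SD, n = 3 each), where FPKM are read counts scaled by the deposited gene length and by library size. Cdh1 and Cldn6 followed with means over 6 libraries of 127 and 116 FPKM, and their ranges overlapped (110 to 146 FPKM for Cdh1, 108 to 125 FPKM for Cldn6). Cldn7 stood alone at 45.1 FPKM. Cgn, Ocln and Marveld2 formed a group at 17.0, 16.9 and 15.3 FPKM in which neighbours overlapped, and Marveld2 also overlapped Esrp1 at 12.4 FPKM. Esrp2 at 8.62 FPKM and Marveld3 at 4.71 FPKM closed the order, each below its neighbour in every library. The claudins and surface adhesion genes therefore lay above the other junction genes and the splicing regulators in all 6 libraries. Each value rests on many reads, from 601 counts (Marveld3 in a Control library) to 25734 counts (Cdh1).

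**Figure D1:**
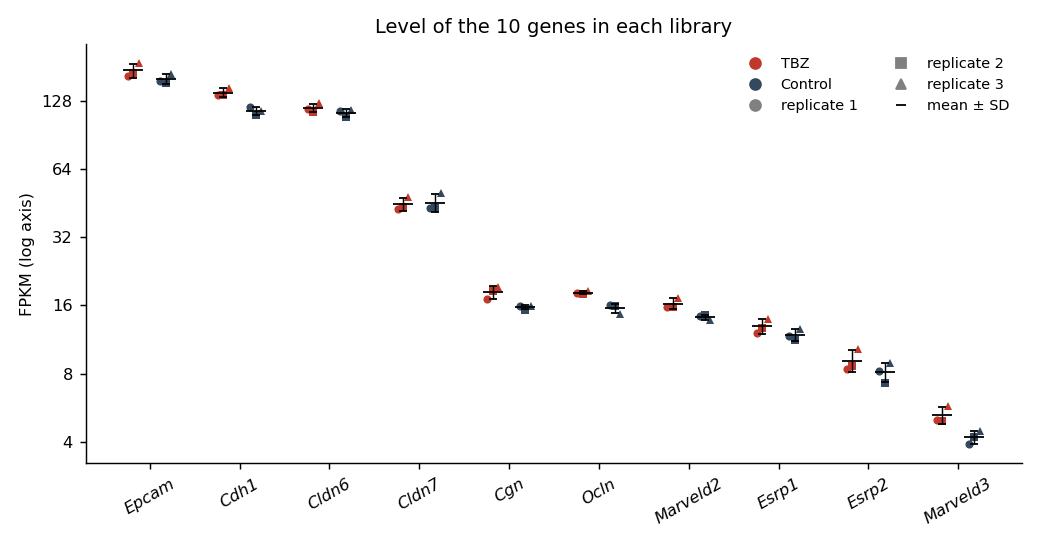
Level of each of the 10 genes in FPKM (log axis), with TBZ libraries in red left of Control libraries in dark blue, symbols for replicates 1 to 3, and black bars for the mean and SD of a group (n = 3). The order runs from Epcam at a mean of 167 FPKM to Marveld3 at 4.71 FPKM, and the group differences are small beside the differences between genes.

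The libraries held 35825033 to 40973254 counted reads in TBZ and 41005819 to 50620936 in Control. Markers of the developing pancreas were present: Pdx1, a transcription factor of the pancreatic epithelium, averaged 29.1 FPKM in TBZ and 22.1 FPKM in Control, and Spp1, a gene of ducts and trunk epithelium, 411 and 361 FPKM in the same order. Cdx2, which defines intestinal epithelium, was close to 0 at 0.016 FPKM in TBZ and 0.0029 FPKM in Control libraries. One library stood apart in epithelial genes of another kind. Krt19, a keratin of ducts and of other simple epithelia, stood at 22.4, 25.6 and 22.6 FPKM in TBZ and at 25.7, 24.0 and 51.4 FPKM in Control replicates 1 to 3. Krt5, a keratin of stratified epithelium, stood at 0.0563, 0.189 and 0.152 FPKM in TBZ and at 0.194, 0.116 and 2.76 FPKM in Control replicates 1 to 3. Both were highest in Control replicate 3. Control replicate 3 was the highest Control library for 7 of the 10 members, and the share of all tested genes was not computed for this count. Among the 7, Cgn was nearly level, at 15.88 FPKM in both Control replicate 1 and Control replicate 3. For Ocln and Marveld2 Control replicate 3 was the lowest of the 6 libraries. Some of the counts, not all that change, are also given without Control replicate 3. Its part in the results was not tested otherwise.

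Across the 10 genes the TBZ libraries lay slightly higher. The genes together took 0.1585, 0.1619 and 0.1764% of all counts in TBZ replicates 1 to 3, a mean of 0.166 ± 0.00951%, against 0.1483, 0.142 and 0.1535% in Control replicates 1 to 3, a mean of 0.148 ± 0.00579% (SD, n = 3 each). No TBZ value fell within the Control range. This share weighs genes by their counts. Cdh1 alone gave 24941 of the 64744 counts in TBZ replicate 1 and 22001 of the 62956 counts in Control replicate 3. The separation of the share therefore leans on Cdh1 and does not describe each of the 10 genes. The log2 fold change was above 0 for 9 of the 10 genes and its median over them was 0.18, while 50.1% of the 18226 tested genes were above 0 and their median was 0.00. None of the 10 passed the edgeR quasi-likelihood test at an adjusted p under 0.05, which 0.187% of all tested genes passed in either direction. At an unadjusted p under 0.05, 5 were higher in TBZ, against 5.08% of all tested genes. DESeq2 put 3 of them (Cdh1, Ocln and Cgn) past its threshold as higher, as it did 1.09% of the genes it adjusted. With no filter on low counts edgeR also put these 3 past the threshold as higher, against 0.842% of all genes with a read. The authors' deposited table puts the same 3 past an adjusted p of 0.05, among the 0.588% of its genes listed as higher. Its adjusted p-values nearly equal those of DESeq2 here on the same counts (0.000218 and 0.00022 for Cdh1), so it is not a separate result. In RNA from whole buds a larger share of epithelial cells and more of these mRNAs per cell cannot be told apart.

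The TBZ and Control libraries did not overlap, with TBZ higher, for 5 of the 10 genes (Cdh1, Ocln, Cgn, Marveld2 and Marveld3), against 8.47% of all tested genes. No member lay lower in every TBZ library than in every Control library, as 7.03% of all tested genes did. Without Control replicate 3 the groups did not overlap, with TBZ higher, for 8 genes, with Epcam, Esrp1 and Esrp2 added. In this smaller set 13.8% of all tested genes did so. TBZ replicate 3 was the highest of the 6 libraries for 9 of the 10 genes, Cldn7 being the exception, and for 17.6% of all tested genes. When each gene was expressed as log2 CPM minus its own Control mean, the median over the 10 genes was 0.09, 0.13 and 0.27 in TBZ replicates 1 to 3 and 0.02, -0.05 and 0.06 in Control replicates 1 to 3. The group means of this median differed by 0.16, and the difference ranged from 0.10 to 0.19 when each library was left out in turn. The lowest value was the one without TBZ replicate 3.

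**Figure D2:**
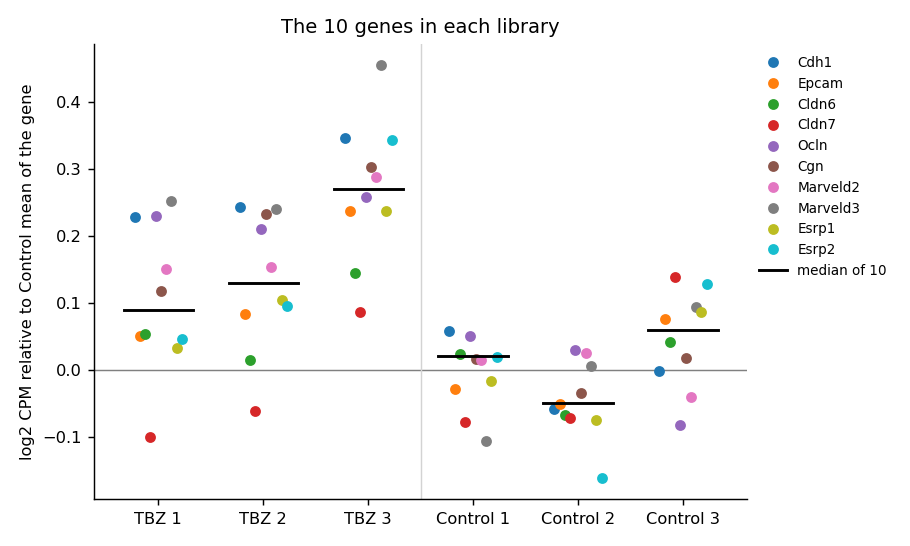
Each gene in each library as log2 CPM minus the gene's own Control mean, with TBZ libraries left of Control libraries and a black bar for the median of the 10 genes. The bars stand at 0.09, 0.13 and 0.27 in TBZ and at 0.02, -0.05 and 0.06 in Control, and Cldn7 is the lowest gene in every TBZ library.

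Cdh1 gave the smallest p of the set. It stood at 617.9, 624.3 and 670.6 CPM (counts scaled to library size with TMM factors) in TBZ replicates 1 to 3, against 549.2, 506.5 and 526.6 CPM in Control replicates 1 to 3. All TBZ libraries lay above all Control libraries. The log2 fold change was 0.27 ± 0.05 (SE), or 1.21-fold, with an edgeR adjusted p of 0.0759. DESeq2 gave an adjusted p of 0.00022 for the same fold change, and over all alternatives the adjusted p ran from 0.00022 to 0.367. Cdh1 spans chr8:106603351-106670246 (mm10), and Esrp2 lies 466376 bases away on the same chromosome.

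Epcam, the most abundant member, had a smaller difference. Its values were 337.5, 345.3 and 384.2 CPM in TBZ and 319.9, 314.6 and 343.7 CPM in Control libraries. Control replicate 3 exceeded TBZ replicate 1, so the groups overlapped, and the log2 fold change was 0.13 ± 0.06 (SE; edgeR adjusted p = 0.539). Without Control replicate 3 the log2 fold change was 0.17 and without TBZ replicate 3 it was 0.07.

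Both claudins of the set lay near 0. Cldn6, a claudin best known from embryonic epithelia, stood at 202.8, 197.4 and 215.9 CPM in TBZ and at 198.6, 186.6 and 201.1 CPM in Control libraries. These ranges overlapped (log2 fold change 0.07 ± 0.05 SE, edgeR adjusted p = 0.687). Cldn7 stood at 82.75, 85.05 and 94.2 CPM in TBZ and at 84.04, 84.43 and 97.7 CPM in Control libraries. It was the 1 member with a negative log2 fold change (-0.02 ± 0.07 SE, edgeR adjusted p = 0.946), and the sign turned to 0.05 without Control replicate 3 and to 0.01 without TBZ replicate 1. Set against the median member of its library, Cldn7 was at -0.18, -0.19 and -0.18 on the log2 scale in TBZ replicates 1 to 3 and at -0.09, -0.01 and 0.08 in Control replicates 1 to 3. These values did not overlap, and since Cldn7 was singled out after its values were seen, they are given without a test.

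The 3 MARVEL-domain genes were higher in every TBZ library than in every Control library. Ocln, for occludin, stood at 77.08, 76.07 and 78.56 CPM in TBZ and at 68.04, 67.03 and 62.04 CPM in Control libraries. It was the tightest member within the TBZ group, at 77.24 ± 1.255 CPM against 65.7 ± 3.211 CPM in Control (SD, n = 3 each). Its log2 fold change was 0.23 ± 0.05 (SE) with an edgeR adjusted p of 0.124 and a DESeq2 adjusted p of 0.0214 (range over alternatives 0.0133 to 0.471). Marveld2, for the tricellulin of corners where several cells meet, lies on chromosome 13 like Ocln, 43238 bases from it. It stood at 53.49, 53.59 and 58.83 CPM in TBZ and at 48.7, 49.03 and 46.87 CPM in Control libraries (log2 0.20 ± 0.05 SE, edgeR adjusted p = 0.231). Marveld3 had the largest fold change of the 10 and the fewest reads. It stood at 16.45, 16.32 and 18.95 CPM in TBZ and at 12.83, 13.86 and 14.74 CPM in Control libraries, a log2 fold change of 0.32 ± 0.09 (SE) or 1.25-fold (edgeR adjusted p = 0.263). Neither Marveld2 nor Marveld3 passed in any alternative, with lowest adjusted p of 0.0793 and 0.0822.

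Cgn, the gene of the junction plaque protein cingulin, followed the MARVEL genes. Its values were 102.8, 111.3 and 116.9 CPM in TBZ and 95.78, 92.47 and 95.93 CPM in Control libraries, with no overlap. The Control libraries were close together and the TBZ libraries more spread, at 110.3 ± 7.07 CPM against 94.73 ± 1.955 CPM (SD, n = 3 each). The log2 fold change was 0.22 ± 0.05 (SE), with an edgeR adjusted p of 0.19 and a DESeq2 adjusted p of 0.0423 (range over alternatives 0.0205 to 0.591).

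The splicing regulators had overlapping groups. Esrp1 stood at 76.66, 80.66 and 88.37 CPM in TBZ and at 74.12, 71.19 and 79.61 CPM in Control libraries (log2 0.13 ± 0.06 SE, edgeR adjusted p = 0.562). Esrp2 stood at 36.52, 37.8 and 44.85 CPM in TBZ and at 35.83, 31.61 and 38.66 CPM in Control libraries (log2 0.17 ± 0.09 SE, edgeR adjusted p = 0.607). In both genes Control replicate 3 exceeded TBZ replicate 1, and Esrp2 fold changes ran from 0.07 without TBZ replicate 3 to 0.24 without Control replicate 3. In the GENCODE M21 annotation 5.05% of the exon bases of Esrp2 are shared with Nfatc3 and 2.74% with 1810019D21Rik on the opposite strand, and 2.01% of those of Esrp1 with Gm26663. The other 8 members share no exon base with another gene. The counting is not stated to use strand, so reads in shared stretches may be misassigned or left out. Splice forms were not analysed here.

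**Figure D3:**
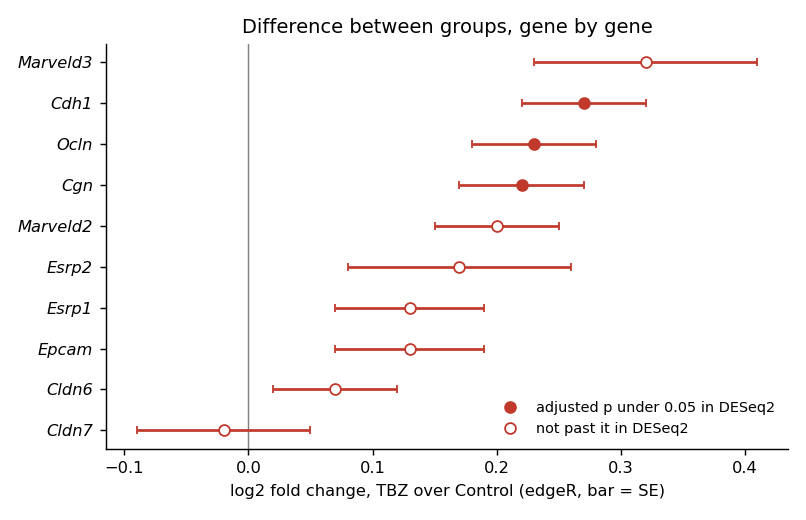
The log2 fold change of each gene, TBZ over Control, from edgeR with its SE, filled where the DESeq2 adjusted p is under 0.05. The values run from -0.02 for Cldn7 to 0.32 for Marveld3, and Cdh1, Ocln and Cgn are the filled points.

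Ratios between related members had overlapping groups. The FPKM ratio of Cldn6 to Cldn7 was 2.77, 2.63 and 2.59 in TBZ and 2.68, 2.5 and 2.33 in Control libraries, a log2 difference of 0.093 (two-sided exact permutation p = 0.3, adjusted over 4 ratios 0.533). That of Marveld2 to Marveld3 was 3.16, 3.19 and 3.02 in TBZ and 3.69, 3.43 and 3.09 in Control libraries (log2 difference -0.122, exact permutation p = 0.3, adjusted 0.533). The ratio of Esrp1 to Esrp2 was 1.42 ± 0.059 in TBZ and 1.46 ± 0.075 in Control libraries (SD, n = 3 each; exact permutation p = 0.6, adjusted 0.6). That of Ocln to Marveld2 was 1.12 ± 0.045 in TBZ and 1.09 ± 0.029 in Control libraries (exact permutation p = 0.4, adjusted 0.533). With 3 against 3 libraries this test cannot go below 0.1.

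Other junction genes were described from lists chosen for their role. Of 22 other claudins 18 had a read and 13 were tested, of which 9 were above and 4 below 0 with a median log2 fold change of 0.15. The most abundant were Cldn3, at 101 ± 7.74 FPKM in TBZ and 88.5 ± 2.91 FPKM in Control (log2 0.19 ± 0.06 SE, edgeR adjusted p = 0.313; SD, n = 3 each), and Cldn4, at 67.4 ± 6.61 FPKM in TBZ and 71.9 ± 8.96 FPKM in Control (log2 -0.09 ± 0.09 SE, adjusted p = 0.795). Cldn10 stood at 24.0, 22.5 and 27.4 FPKM in TBZ and at 20.9, 18.4 and 15.5 FPKM in Control libraries (log2 0.43 ± 0.11 SE, edgeR adjusted p = 0.197, DESeq2 adjusted p = 0.00455). It was the 1 claudin past the DESeq2 threshold.

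Tight junction scaffolds and polarity genes had a median log2 fold change of 0.07, with 16 of 20 above 0. F11r, which encodes the adhesion molecule JAM-A, stood at 47.9, 45.9 and 50.3 FPKM in TBZ and at 42.0, 42.4 and 42.9 FPKM in Control libraries (log2 0.18 ± 0.05 SE, edgeR adjusted p = 0.214). Ildr1, for an angulin of the cell corners where tricellulin is recruited, had a log2 fold change of 0.24 ± 0.07 (SE; adjusted p = 0.261), and the scaffold gene Tjp1, for ZO-1, had 0.12 ± 0.06 (SE; adjusted p = 0.54). In CPM these 3, named for a small p or a high FPKM, were higher in every TBZ library than in every Control library. Of the 20 genes of the list 5 were higher in this way and 1 was lower in every TBZ library. Over all tested genes the shares were 8.47% higher and 7.03% lower. Adherens junction and desmosome genes had a median of 0.04, with 17 of 19 above 0. The count was 11 of 19 without Control replicate 2 and 19 of 19 without Control replicate 3. Among the catenins that bind E-cadherin, Ctnnb1, for β-catenin, stood at 218 ± 1.6 FPKM in TBZ and 213 ± 3.79 FPKM in Control, and Ctnna1 at 117 ± 2.65 and 118 ± 3.11 FPKM in the same order (SD, n = 3 each; log2 0.04 and 0.00). Dsg2, a desmosomal cadherin gene, had a log2 fold change of 0.25 ± 0.06 (SE; edgeR adjusted p = 0.222, DESeq2 0.0404), and Afdn, for the junction protein afadin, 0.24 ± 0.07 (SE; edgeR adjusted p = 0.289).

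Of 17 tested keratins and other epithelial genes, 12 were above 0 and the median was 0.04. Without Control replicate 2 the count was 7 of 18 and without TBZ replicate 3 it was 9 of 18, each with a median of -0.01. Krt8 stood at 227 ± 15.0 FPKM in TBZ and 224 ± 14.6 FPKM in Control, and its partner Krt18 at 136 ± 7.21 FPKM in TBZ and 147 ± 14.1 FPKM in Control (SD, n = 3 each; log2 0.02 and -0.11). The protease inhibitor gene Spint1 (0.20) and the protease gene Prss8 (0.19), named for the smallest p of the list, had non-overlapping groups with TBZ higher (edgeR adjusted p = 0.231 and 0.361). Of the 17 tested genes of the list 5 had such groups with TBZ higher and 0 with TBZ lower. Over all tested genes the shares were 8.47% and 7.03%. Among epithelial transcription factors 7 of 10 were above 0, with a median of 0.09. This turned to 4 of 10 and -0.08 without Control replicate 2, and was 9 of 10 and 0.22 without Control replicate 3. Ehf stood at 13.4, 12.7 and 14.1 FPKM in TBZ and at 10.4, 12.0 and 9.77 FPKM in Control libraries (log2 0.32 ± 0.08 SE, edgeR adjusted p = 0.19, DESeq2 0.0123), Grhl2 had a log2 fold change of 0.26 ± 0.09 (SE; edgeR adjusted p = 0.386) and Elf3 of 0.03.

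Repressors of epithelial genes and genes of mesenchymal adhesion had a median of -0.05, with 3 of 10 above 0. Without TBZ replicate 3 the median was 0.02 with 7 of 10 above 0, and without Control replicate 2 it was 0.00 with 5 of 10 above 0. Zeb1 stood at 9.07, 8.74 and 8.92 FPKM in TBZ and at 9.75, 10.8 and 9.05 FPKM in Control libraries (log2 -0.15 ± 0.06 SE, edgeR adjusted p = 0.496), and the ranges overlapped. Twist1 had a log2 fold change of -0.36 ± 0.14 (SE; adjusted p = 0.47), Vim, for the filament protein vimentin, of 0.03 and Fn1, for fibronectin, of 0.28 (adjusted p = 0.593). In none of these 6 lists did a gene pass the edgeR test. At an unadjusted p under 0.05, 4 of the claudins, 4 scaffolds and 3 adherens and desmosome genes were higher. So were 3 transcription factors and 4 keratins and other epithelial genes, where 5.08% of all tested genes were higher. None were lower in these 5 lists. In the repressor and mesenchymal list 2 were lower, and the share of all tested genes that were lower was not computed. Without Control replicate 2 the keratin list had 1 higher and 2 lower and the transcription factors 1 higher and 1 lower, and that of the repressors and mesenchymal genes 0 lower. DESeq2 put 1 claudin, 1 adherens and desmosome gene and 1 transcription factor higher.

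**Figure D4:**
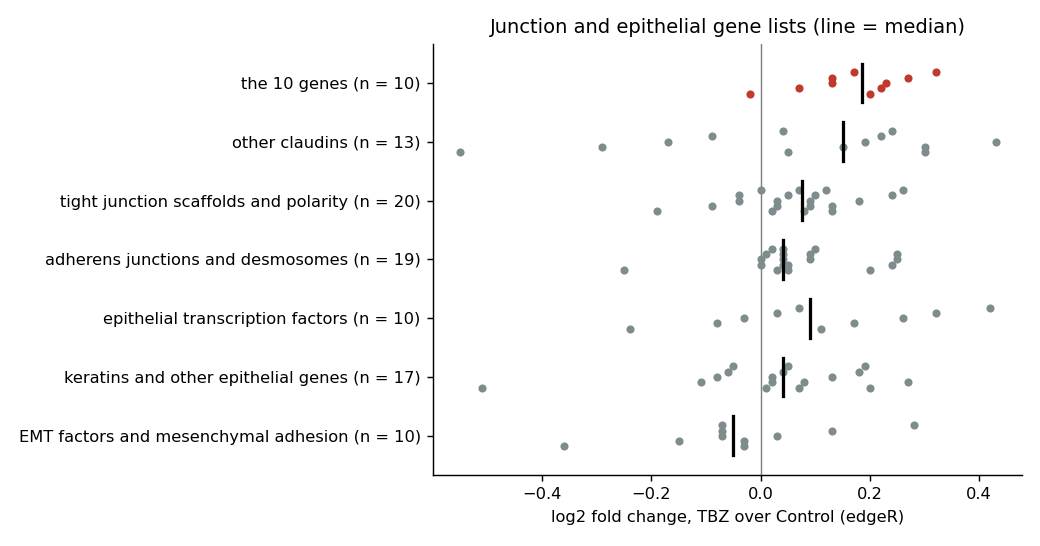
The log2 fold changes (TBZ over Control, edgeR) of the tested genes of each list, 1 point a gene, with black lines at the medians. The median is 0.18 for the 10 genes and 0.15, 0.07, 0.04, 0.09, 0.04 and -0.05 for the lists below it.

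For each of 9 marker lists of other cell types, the summed FPKM of the TBZ and Control libraries overlapped. The summed FPKM of 10 mesenchyme markers was 953, 861 and 828 in TBZ replicates 1 to 3 and 830, 950 and 844 in Control replicates 1 to 3. Col1a1 and Col3a1, its most abundant genes, had log2 fold changes of 0.08 and -0.03. Endothelial markers summed to 74.4, 70.7 and 68.7 FPKM in TBZ and to 68.9, 68.6 and 68.6 FPKM in Control libraries, and macrophage markers to 114, 93.8 and 89.8 FPKM in TBZ and to 98.7, 112 and 92.6 FPKM in Control libraries. The 6 mesothelial markers were all below 0 in log2 fold change and summed to 57.6, 73.8 and 57.8 FPKM in TBZ and to 65.2, 65.2 and 79.7 FPKM in Control libraries. Without Control replicate 3, 2 of the 6 were above 0 and the median was -0.03, against -0.19 with it. All 6 neural markers were below 0 too, with sums of 25.8 to 28.4 FPKM in TBZ and of 24.9 to 37.7 FPKM in Control libraries. Without Control replicate 3, 3 of these 6 were above 0 and the median was -0.02, against -0.18 with it. Stomach and oesophagus markers summed to 54.1, 83.5 and 57.1 FPKM in TBZ and to 83.3, 73.0 and 106 FPKM in Control libraries, with Control replicate 3 the highest and Tff1 at 0 counts in all libraries. Most of this sum was Barx1, at 48.8, 75.5 and 53.0 FPKM in TBZ and 77.7, 66.8 and 76.1 FPKM in Control libraries. Pitx1 stood at 0.568, 2.72 and 0.483 FPKM in TBZ and at 2.23, 2.52 and 17.9 FPKM in Control libraries. Of 7 tested genes of this list 5 were below 0 and 2, Tff2 and Gkn1, above. Tff2 stood at 2.75, 2.35 and 2.1 FPKM in TBZ and at 0.985, 1.28 and 0.49 FPKM in Control libraries (log2 1.37 ± 0.32 SE, edgeR adjusted p = 0.185). DESeq2 put 1 gene of the list past its threshold as higher and 0 as lower, against 1.09% of all genes it adjusted as higher. Erythroid markers summed to 472, 404 and 500 FPKM in TBZ and to 533, 488 and 559 FPKM in Control libraries. Duodenal markers summed to 3.48 to 4.5 FPKM over the 6 libraries and liver markers to 5.15 to 7.63 FPKM. The part of these cells in the differences of the 10 genes was not tested.

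Markers of the pancreatic epithelium lay mostly above 0. The 7 progenitor and trunk genes were all above 0 (median 0.25) and summed to 544, 529 and 590 FPKM in TBZ and to 480, 484 and 459 FPKM in Control libraries. The 10 acinar genes were all above 0 with a median of 0.49, and 6 passed the edgeR test as higher, against 0.154% of all tested genes. That count was 1 without TBZ replicate 3, 3 without TBZ replicate 1 and 3 without Control replicate 2, while all 10 genes stayed above 0 in each of these. The difference in summed level was 0.59 on the log2 scale for these acinar genes and 0.15 for the 10 epithelial genes. Endocrine genes (9 of 10 above 0, median 0.25) summed to 463, 314 and 439 FPKM in TBZ and to 365, 367 and 309 FPKM in Control libraries, so that TBZ replicate 2 lay within the Control range for them while it lay above all Control libraries for the summed level of the 10 genes. The part of these epithelial cell types in the differences of the 10 genes was not tested.

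**Figure D5:**
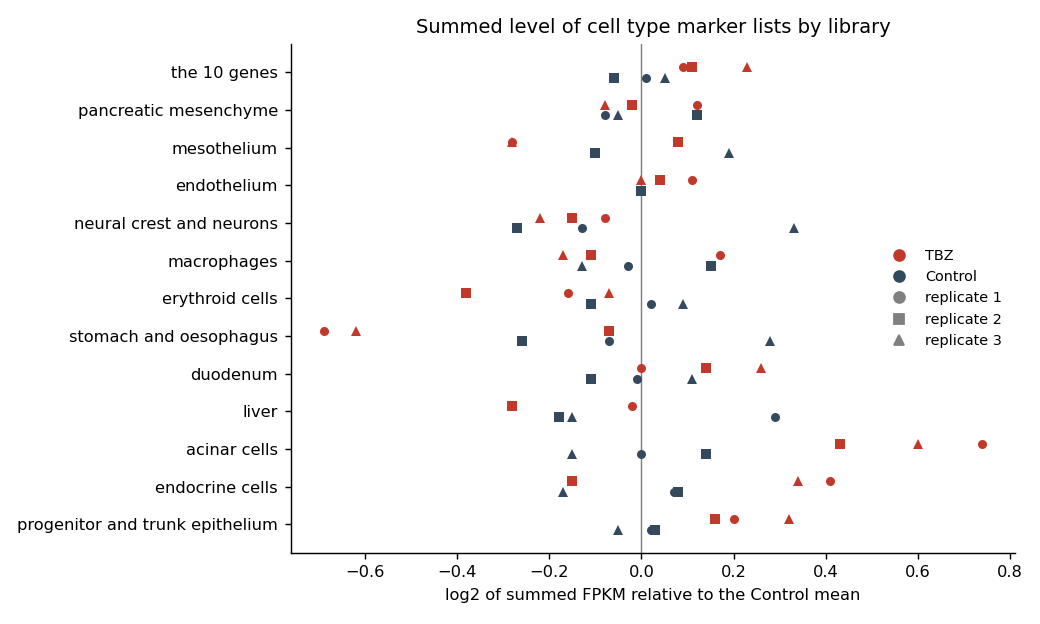
Log2 of the summed FPKM of each marker list in each library relative to its Control mean, TBZ in red above Control in dark blue, with symbols for replicates. The 10 genes lie between 0.09 and 0.23 in TBZ and between -0.06 and 0.05 in Control, and acinar markers between 0.43 and 0.74 in TBZ.

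The pattern of the 10 genes over the 6 libraries was compared with 13344 other genes with a mean of at least 1 FPKM, by the root mean square difference between centred log2 CPM and the median of the 10. Epcam (0.024) and Esrp1 (0.029) were the members nearest to that median, which they help to set, and Cldn7 (0.103) and Marveld3 (0.098) the farthest, while the median of the other genes was 0.127. The 8 nearest genes lay at 0.025 to 0.032. They were Fam222a, the syntaxin gene Stx16, the acyltransferase gene Agpat2, the immediate-early gene Ier2, the hyaluronan-binding protease gene Habp2, the splicing factor gene Tra2a, Zcchc7 and Zfp61. Their log2 fold changes ran from 0.10 to 0.17, and none passed the edgeR test, the lowest adjusted p being 0.257 for Ier2.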

How the data were processed

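Poly-A RNA of 3 TBZ and 3 Control bud samples was prepared with a NEBNext Ultra kit and sequenced in pairs, per the labels' protocols. The submitters' processing notes name STAR, HTSeq and the build mm10, with no versions. Per the file headers the deposited table holds read counts per gene, FPKM values made by the authors, group mean signal, log2 fold changes and p-values with adjusted p-values. The counts are whole numbers with no normalization. The FPKM the authors deposited use the deposited gene length and a library total within 0.9906 to 1.022 of the summed counts.

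Counts were tested here with the edgeR 4.0.16 quasi-likelihood test (R 4.3.3; TMM, filterByExpr, Benjamini-Hochberg over 18226 tested genes of 31250 with a read; biological coefficient of variation 8.3%). Adjusted p under 0.05 counted as changed. The SE was computed from the log2 fold change and its F statistic. Alternatives were DESeq2 1.42.0, other scalings, no filter, a replicate block, limma 3.58.1 on log2(FPKM + 0.5), + 0.1 and + 1 over the same genes, and each library left out; non-overlap counts without each library were added after the data were seen. The members and lists were chosen with earlier results of these data known. All members were named. From each junction or epithelial list the genes with an adjusted p under 0.05, the 2 with the smallest p and the 2 with the highest FPKM were named, and from marker lists the 2 highest; some of these are given only in sums. Krt19, Krt5, Pdx1, Cdx2, Tff1, Tff2 and Gkn1, and the genes in the other observations, were chosen after their values were seen. Promoters are from RefSeq (GRCm38.p6). GENCODE M21 has the deposited spans of all members but Epcam.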

Additional observations from a re-analysis of the deposited data

How the results depend on the processing

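The log2 fold changes of the 10 genes were recomputed under 14 alternatives, and 132 of 140 values kept their direction and their side of the threshold. The sign of Cldn7 turned in 2, without Control replicate 3 (0.05) and without TBZ replicate 1 (0.01), within a range of -0.08 to 0.05 over the libraries left out. Cdh1, Ocln and Cgn account for the other 6, passing at unchanged log2 fold changes of 0.27, 0.23 and 0.22 with DESeq2 (adjusted p = 0.00022, 0.0214 and 0.0423) and with no filter in edgeR (0.000436, 0.0133 and 0.0205). With each library left out, log2 fold changes ran from 0.23 to 0.30 for Cdh1, 0.07 to 0.17 for Epcam, 0.03 to 0.10 for Cldn6, 0.20 to 0.26 for Ocln, 0.18 to 0.27 for Cgn, 0.15 to 0.22 for Marveld2, 0.25 to 0.37 for Marveld3, 0.07 to 0.17 for Esrp1 and 0.07 to 0.24 for Esrp2. The difference of the member medians (0.16) ran from 0.10 to 0.19, the count of non-overlapping members from 5 to 8 and that of positive members from 9 to 10. Over all tested genes the non-overlapping share with TBZ higher was 8.47% with all libraries and 12.0 to 14.8% with a library left out. The share of positive genes was 50.1% and 48.6 to 51.5% in the same order. The log2 difference of the Esrp1 to Esrp2 ratio (-0.04) ran from -0.063 to 0.002 and turned sign without Control replicate 2. The count over all genes, 34 in edgeR, was 222 with DESeq2, 445 with no filter, 13, 14 and 4 with limma on FPKM plus 0.5, 0.1 and 1, and 5 to 36 with a library left out (13 without Control replicate 2, 11 without TBZ replicate 1, 5 without TBZ replicate 3). With the replicate number as a block it was 5, and no member passed. At an unadjusted p under 0.05 the block put 8 members higher in edgeR, and the share of all genes was not computed for it. Deviations from group means of same-numbered libraries correlated at -0.008, -0.181 and -0.079, and those of different-numbered libraries at -0.111 to 0.173. The labels do not say whether replicate numbers pair the libraries, and these correlations cannot settle it. Listed genes past the threshold, 0 in edgeR, numbered 1 for other claudins with DESeq2 and 1 with no filter, 1 and 3 for adherens junctions and desmosomes, 1 and 1 for epithelial transcription factors, and 0 and 3 for keratins and other epithelial genes. All were higher in TBZ but 1 of the 3 adherens and desmosome genes and 2 of the 3 keratin list genes with no filter, which were lower; over all genes 1.09% were higher with DESeq2 and 0.842% with no filter. The count of acinar genes, 6 in edgeR, was 1 with the replicate block and 3, 3 and 1 with limma on FPKM plus 0.5, 0.1 and 1. The cause of these shifts was not tested. Every member had 601 counts or more per library, and 3 libraries a group limit the precision. The part of counting error in the spread was not computed.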

Other observations

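Some epithelial and desmosomal genes outside the 10 were highest in Control replicate 3, and others were not. Pkp1, a plakophilin gene of stratified epithelium, stood at 0, 0.00974 and 0.00555 FPKM in TBZ and at 0.017, 0.0157 and 0.299 FPKM in Control libraries. Perp, a desmosomal membrane gene, stood at 11.7, 10.5 and 9.16 FPKM in TBZ and at 10.4, 10.5 and 16.5 FPKM in Control libraries, and Klf5, an epithelial transcription factor gene, at 2.99, 3.62 and 2.71 FPKM in TBZ and at 3.45, 3.05 and 4.58 FPKM in Control libraries. Other genes of the same lists had their lowest Control value in that library. Dsg2 stood at 12.0, 13.0 and 13.8 FPKM in TBZ and at 11.6, 10.7 and 10.2 FPKM in Control libraries, and Spint1 at 45.2, 43.2 and 46.5 FPKM in TBZ and at 41.7, 38.1 and 37.7 FPKM in Control libraries. Afdn and Ehf were also lowest there among the Control libraries, at 14.8 and 9.77 FPKM. Epcam stood at 167.9 FPKM in Control replicate 3 against 156.5 and 153.8 FPKM in the other Control libraries. Among claudins outside the 10, Cldn18, known from stomach and lung epithelium, varied within both groups, at 0.122, 0.945 and 0.156 FPKM in TBZ and 0.942, 0.168 and 0.402 FPKM in Control libraries.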
